A study of Homo sapiens with 6 samples.

Results

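The genes described here carry pyruvate into the mitochondrion, turn it through the tricarboxylic acid (TCA) cycle and connect the cycle to glutamine, aspartate and cytosolic citrate. They are 35 gene symbols, taken by name from the pathway and not by their values, and all 35 were found among the 26255 symbols of the table. The cells were of the line MDA-MB-231, a human triple-negative breast cancer line, and the RNA of 6 libraries was read. Of these, 3 came from cells with a control short hairpin RNA (shNT) and 3 from cells with a hairpin against GPR81 (shGPR81), a receptor for lactate whose gene is HCAR1. Both groups were infected with lentivirus and selected in puromycin. The study made more than 1 GPR81 hairpin, and the labels do not say which one the sequenced cells carried, nor whether the libraries of a group came from separate cultures, so the p-values measure only the spread between these libraries, which may be technical.

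Pyruvate stands at a fork at the end of glycolysis. It can be reduced to lactate in the cytosol, or enter the mitochondrion through the pyruvate carrier, where the pyruvate dehydrogenase (PDH) complex makes acetyl-CoA from it and pyruvate carboxylase makes oxaloacetate. Kinases of the PDK family switch the complex off by phosphorylation, and phosphatases of the PDP family switch it on again. Citrate synthase joins acetyl-CoA to oxaloacetate, and the cycle returns to oxaloacetate through isocitrate, oxoglutarate, succinate, fumarate and malate. Glutamine enters as glutamate and then oxoglutarate, and citrate leaves for the cytosol, where it is split for lipid synthesis.

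Values are FPKM (fragments per kilobase of transcript, scaled to library size), so levels can be set side by side between genes. HCAR1 itself was at 0.968, 1.02 and 1.36 FPKM in shNT and 0.978, 0.891 and 0.396 FPKM in shGPR81. The groups overlapped, and the difference of -0.57 on the log2 scale (SE 0.31, adjusted p = 0.38) did not pass the test. At so low a level the estimate depends on the 0.1 FPKM added before the logarithm. It was -0.65 with 0.01 FPKM added and -0.28 with 1 FPKM added. The study itself reported less GPR81 in its knockdown cells than in shNT cells by RT-qPCR and western blotting. All 6 markers of this line (VIM, CD44, AXL, EGFR, CAV1 and MSN) were at 1 FPKM or more. Of the 6 luminal markers, ESR1, PGR and CDH1 were listed at 0 in every library, and GATA3, FOXA1 and TFF1 had means of 1 FPKM or more over the 6 libraries. GATA3 had means of 1.21 ± 0.112 and 1.37 ± 0.0245 FPKM in shNT and shGPR81, and FOXA1 1.58 ± 0.371 and 1.71 ± 0.285 FPKM. TFF1 had means of 7.35 ± 1.23 and 0.401 ± 0.141 FPKM. The luminal list summed to 9.28 to 11.7 FPKM in shNT and 3.21 to 3.79 FPKM in shGPR81. Of the leukocyte markers CD3E was at 0 in every library, and the list summed to 2.24 to 4.29 FPKM in shNT and 1.14 to 1.77 FPKM in shGPR81, nearly all of it CD14. The endothelial and adipocyte lists stayed at or below 0.178 FPKM in sum. The part of these markers in the results was not tested. Relative depth was 1 to 1.07 over the 6 libraries. The summed FPKM was less even, from 876960 in shGPR81 replicate 3 to 1003500 in shNT replicate 3.

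The estimated changes of the 34 members that could be tested were small, from -10.3% to 23.8%. Of the 35 members, 34 passed the filter on low values and were tested among 14349 genes. Under the thresholds of an adjusted p below 0.05 (limma) and a fold change beyond 1.5, 0 members were lower and 0 were higher, where 1.59% of all tested genes were called lower and 0.955% higher. Without the fold threshold 1 member, IDH1, was higher and 0 were lower, beside 2.06% and 3.07% of all tested genes. At an unadjusted p below 0.05, 6 members were higher (IDH1, ME3, MDH1, PC, ACLY and PDK1) and 2 lower (DLAT and IDH3A), beside 10.1% and 9.43% of all tested genes. The median log2 fold change of the 34 members was 1.8e-05, and that of all tested genes was 0.00811. The fold change was above 0 for 17 members and below 0 for 17, and it was below 0 for 48.1% of all tested genes.

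**Figure D1:**
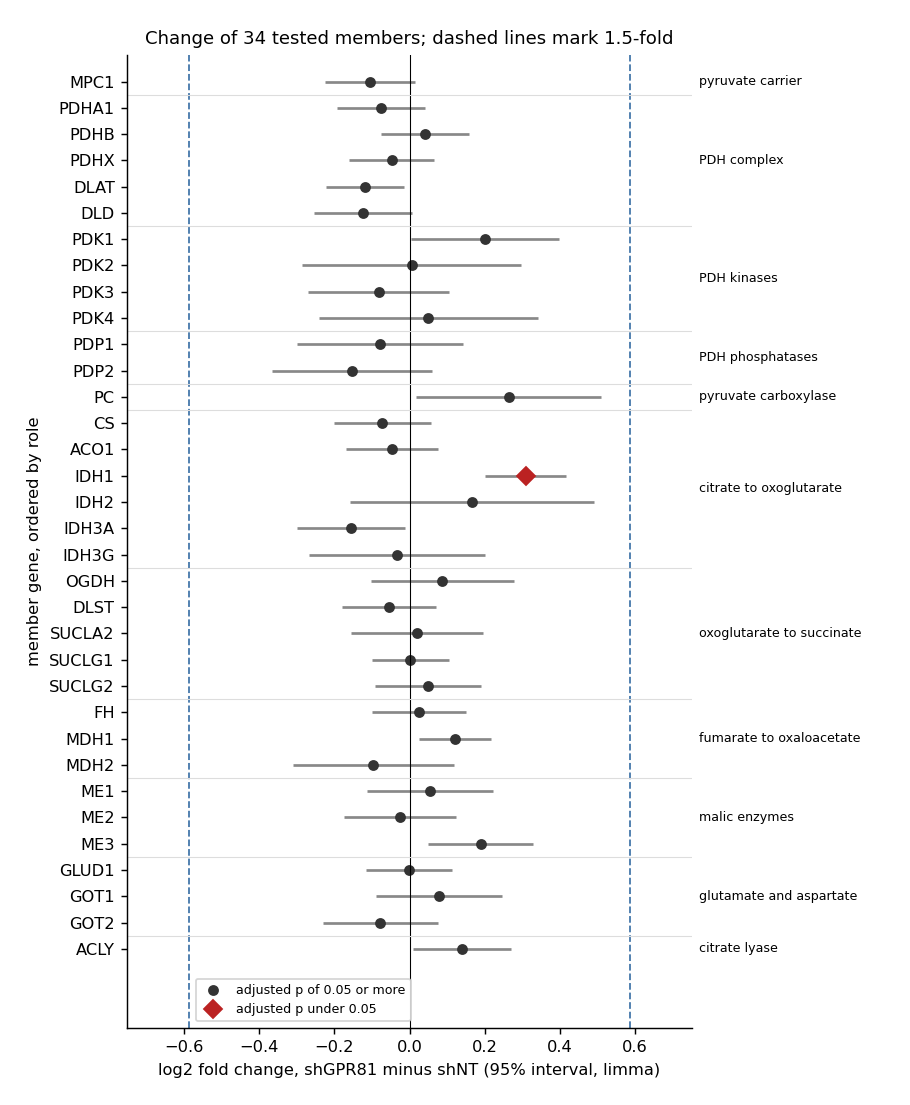
Log2 fold change (shGPR81 minus shNT) of the 34 tested members, grouped by role, with the estimate as a point and the 95% interval from limma as a bar. All 34 bars lie between the dashed lines at 1.5-fold, and IDH1, the 1 member with an adjusted p below 0.05, is the farthest from 0 at 0.31.

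These small differences were measured closely. The 95% interval lay inside 1.5-fold in both directions for 34 of the 34 members, and for 69.8% of all tested genes. Members are well expressed, with a median level at percentile 83.3 of the tested genes. Among tested genes with a mean of 10 FPKM or more the share was 94.8%, and all 31 members at that level had such an interval. The lowest end of any member's interval was a change of -22.3% (PDP2), and the highest end was 42.3% (PC). The estimate was within 10% of shNT for 26 members, more than 10% above it for 6 and more than 10% below it for 2.

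**Figure D2:**
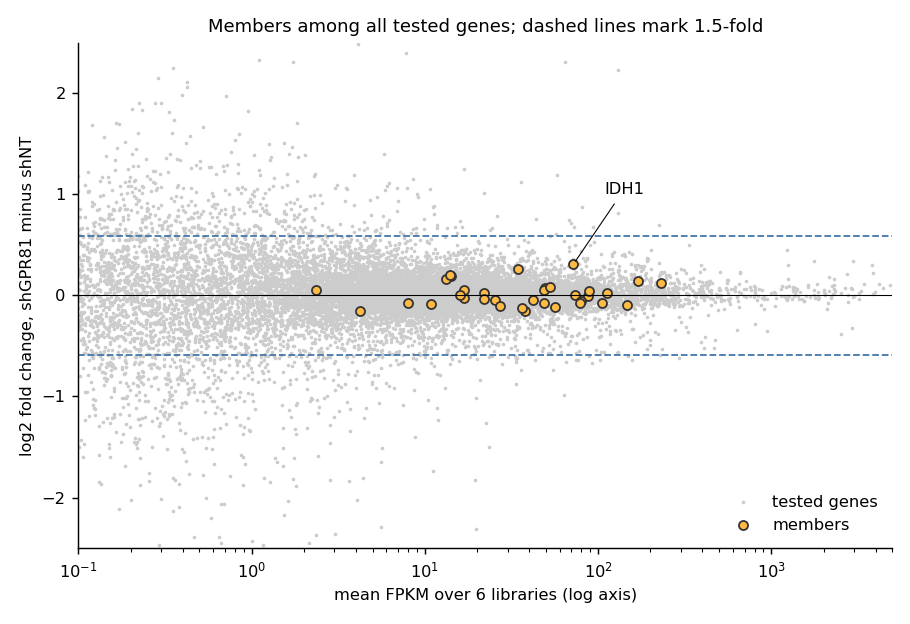
Log2 fold change (shGPR81 minus shNT) against the mean FPKM over 6 libraries (log axis), with all tested genes in grey and the 34 tested members marked over them. The members lie in a narrow band around 0 among the well-expressed genes. In all, 175 of the tested genes fall outside the plotted range of fold change or of mean FPKM.

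The levels of the members spanned a wide range. MDH1, the cytosolic malate dehydrogenase, stood highest with a mean of 230.5 FPKM over the 6 libraries, 97.9 times that of PDK4, the lowest tested member, at 2.35 FPKM. In all, 5 members had a mean of 100 FPKM or more (MDH1, ACLY, MDH2, FH and GOT2), 26 lay between 10 and 100 FPKM, and 4 were below 10 FPKM (PDP1, PDP2, PDK4 and GLS2). All kinases and phosphatases of the PDH complex were among the 9 lowest members, together with ME3, IDH2 and GLS2. Of the 34 pairs of neighbours in this order, the libraries were fully apart in 10. These were MDH1 above ACLY, MDH2 above FH, GOT2 above PDHB, IDH1 above DLAT, PDHA1 above ACO1, SUCLA2 above ME2, and the steps from PDK3 down through PDP1, PDP2 and PDK4 to GLS2. All other neighbours overlapped, as did those in the run PDHB, GLUD1, DLST, CS, SUCLG1 and IDH1.

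**Figure D3:**
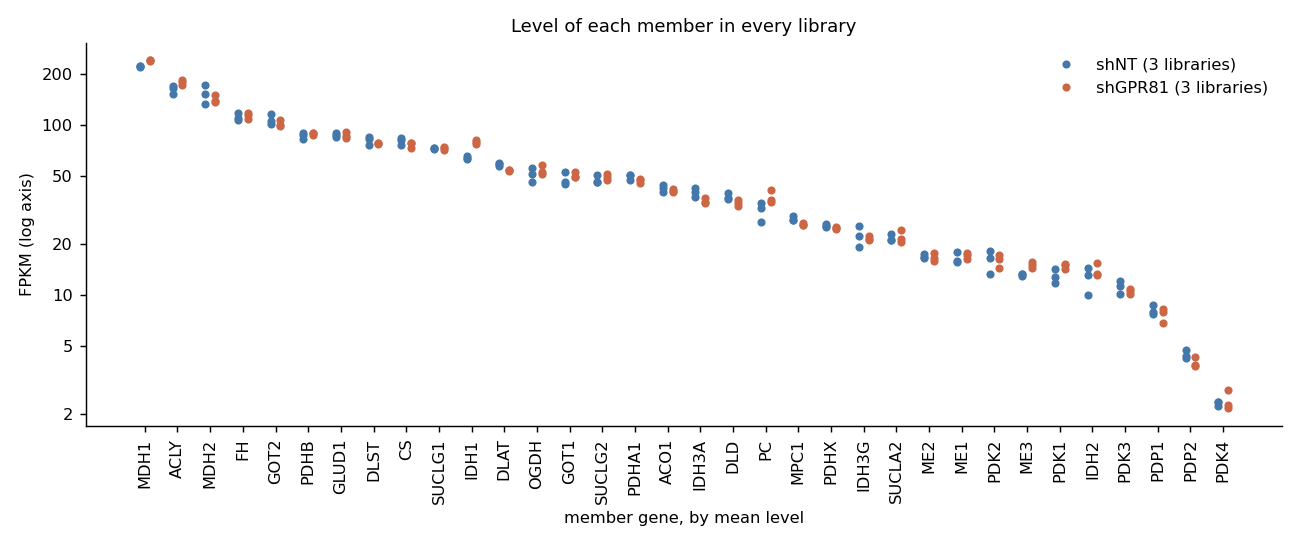
FPKM of 34 members in each of the 6 libraries (log axis), in order of mean level, with the groups in different colours. The points run from MDH1 at a mean of 230.5 FPKM to PDK4 at 2.35 FPKM, with the groups close together for each gene, and GLS2 is not drawn.

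MPC1, a subunit of the mitochondrial pyruvate carrier, was at 27.5, 29.1 and 27.6 FPKM in shNT and 25.9, 25.7 and 26.7 FPKM in shGPR81. Every shGPR81 library was below every shNT library, but the difference of -0.11 on the log2 scale (SE 0.051, adjusted p = 0.321) did not pass the test. MPC2, its partner subunit and no member, was higher in shGPR81, also without overlap. It had means of 14.7 ± 0.48 and 16.4 ± 0.798 FPKM in shNT and shGPR81. That difference of 0.16 on the log2 scale (SE 0.063, adjusted p = 0.221) did not pass either.

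Of the 5 genes of the PDH complex, 0 passed the test. In 3 the groups did not overlap, all lower in shGPR81, where 12.7% of all tested genes were lower without overlap. DLAT, the acetyltransferase at the core of the complex, was at 60.1, 57.4 and 58.8 FPKM in shNT and 53.5, 54.3 and 54.6 FPKM in shGPR81. The groups did not overlap, and the difference was -0.12 on the log2 scale (SE 0.044, adjusted p = 0.199). DLD, the dihydrolipoamide dehydrogenase that several dehydrogenase complexes share, was at 39.7, 36.7 and 37.5 FPKM in shNT and 36.2, 33.5 and 34.9 FPKM in shGPR81, also without overlap, and differed by -0.12 on the log2 scale (SE 0.056, adjusted p = 0.283). PDHX, which anchors DLD in the complex, was at 26.17, 25.27 and 25.58 FPKM in shNT and 24.69, 25.25 and 24.59 FPKM in shGPR81. Its groups were apart by the last digit only, with a change of -3.22% and an adjusted p of 0.677. The decarboxylase subunits overlapped between groups. PDHA1, the alpha subunit that the kinases phosphorylate, had means of 49.8 ± 1.93 and 47.2 ± 1.09 FPKM in shNT and shGPR81, and PDHB, the beta subunit, 86.9 ± 4.01 and 89.3 ± 1.24 FPKM. The summed level of the 5 genes was 264, 258 and 255 FPKM in shNT and 252, 249 and 249.9 FPKM in shGPR81.

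In all, 5 of the 34 tested members were lower in shGPR81 without overlap between groups, where 12.7% of all tested genes were, and 5 were higher, where 12.9% were. Both shares are near the background. The lower members were MPC1, PDHX, DLAT, DLD and IDH3A, and the higher ones IDH1, PC, ME3, ACLY and MDH1. These counts were repeated under other scalings, a step added after the data were seen. With each library centred on its median the counts were again 5 and 5, but IDH3A overlapped and PDP2 did not. After quantile normalization 10 were lower and 5 higher, beside 13.5% and 12.7% of all tested genes, where PDHX overlapped and PDHA1, PDP2, CS, ACO1, DLST and GOT2 were lower without overlap.

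**Figure D4:**
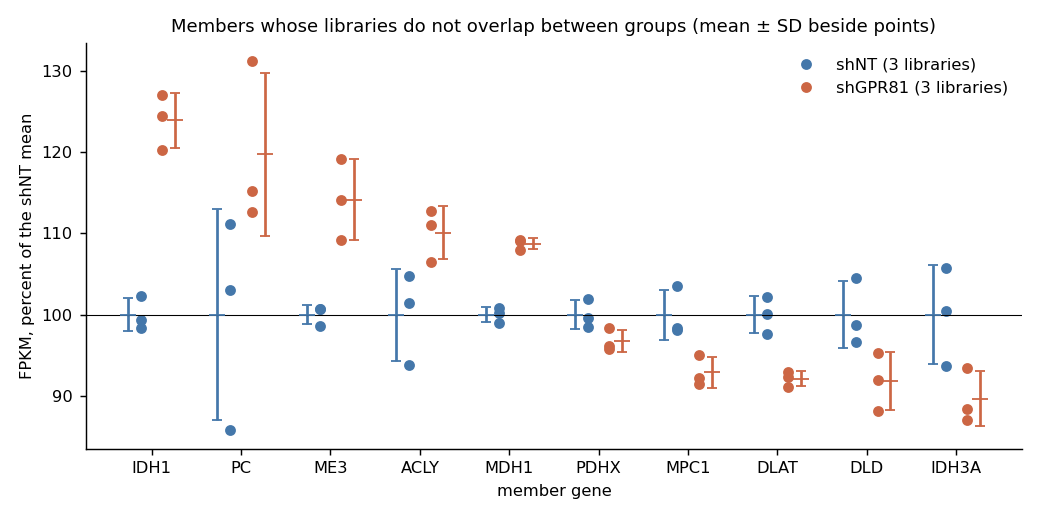
Values of the 10 members whose libraries did not overlap between groups, as percent of the shNT mean, with a point for each of the 3 libraries of a group. IDH1 and PC stand highest in shGPR81 and IDH3A lowest, and the shNT libraries of PC are the most widely spread.

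The kinases differed little. PDK1, known as a target of hypoxia signalling, was at 14.3, 12.8 and 11.7 FPKM in shNT and 15.3, 15.1 and 14.2 FPKM in shGPR81. The lowest shGPR81 library was below the highest shNT library, so the groups overlapped, and the difference was 0.20 on the log2 scale (SE 0.084, adjusted p = 0.248). The other kinases overlapped as well, PDK2 with means of 15.99 ± 2.505 and 15.96 ± 1.44 FPKM in shNT and shGPR81 (SD, n = 3) and PDK3 with 11.2 ± 0.953 and 10.6 ± 0.382 FPKM. PDK4, known for its rise in fasting, was low in both groups with means of 2.31 ± 0.06702 and 2.404 ± 0.336 FPKM, which stand for 110 to 142 reads per library. The summed level of the 4 kinases was 41.9 to 44.5 FPKM over all 6 libraries. PDK1 made up 26.96% to 34.1% in shNT and 31.96% to 36.01% in shGPR81, and PDK2 31.5% to 41.6% in shNT and 33.7% to 38.6% in shGPR81. The ratio of PDK1 to PDK3 was 1.19, 1.26 and 1.04 in shNT and 1.45, 1.49 and 1.298 in shGPR81. These ratios did not overlap (exact two-sided permutation test, p = 0.1, adjusted p = 0.4 over 8 ratios), and 0.1 is the smallest p that 3 against 3 libraries allow.

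The phosphatases stood below the kinases in sum, at 10.7 to 13.5 FPKM over the 6 libraries. PDP1, the calcium-sensitive one, had means of 8.16 ± 0.549 and 7.73 ± 0.736 FPKM in shNT and shGPR81. PDP2 had means of 4.47 ± 0.233 and 4.01 ± 0.258 FPKM, from 382 to 446 reads per library, and differed by -0.15 on the log2 scale (SE 0.091, adjusted p = 0.426). Groups overlapped for both genes.

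PC, pyruvate carboxylase, refills the cycle with oxaloacetate. It was at 26.99, 32.4 and 34.98 FPKM in shNT and 35.5, 36.3 and 41.3 FPKM in shGPR81. The groups nearly touched, and shNT replicate 1 lay well below the other shNT libraries. The difference was 0.26 on the log2 scale (SE 0.11, adjusted p = 0.223), and it ranged from 0.16 to 0.34 with single libraries left out, lowest without shNT replicate 1.

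IDH1 was the 1 member whose difference passed the adjusted p. It encodes the cytosolic enzyme that makes NADPH from isocitrate, and was at 65.8, 63.3 and 63.9 FPKM in shNT and 80.1, 81.7 and 77.4 FPKM in shGPR81. All shGPR81 libraries lay above all shNT libraries, with a gap wider than the range of either group. The difference was 0.31 on the log2 scale (SE 0.046, adjusted p = 0.0103), a rise of 23.8% with a 95% interval of 14.98% to 33.4%, and it remained below the fold threshold. In bulk RNA, a higher level per cell and a larger share of cells with the transcript cannot be told apart. The estimate was 0.29 to 0.33 over 14 alternative settings, while its adjusted p was 0.064 without shNT replicate 2, 0.0653 without shGPR81 replicate 1 and 0.0689 without shGPR81 replicate 2. In those fits 282 to 294 genes of the whole table had an adjusted p below 0.05, compared with 736 with all libraries.

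IDH1 lies on the minus strand of chromosome 2 of GRCh37, from 209100953 to 209130798 in GENCODE release 44. The non-coding gene IDH1-AS1 lies inside these bounds on the plus strand, from 209119938 to 209120905. The library kit was stranded, but whether the counting used strand is not given in the sources used here. IDH1-AS1 was at 2.31, 2.25 and 4.09 FPKM in shNT and 3.83, 3.63 and 4.84 FPKM in shGPR81, from 9 to 20 reads per library, so its groups overlapped at a level far below IDH1.

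The other 3 isocitrate dehydrogenase members did not pass, while IDH3B, which is no member and is described with the neighbouring genes, did. IDH2, the mitochondrial NADP-dependent enzyme, had means of 12.5 ± 2.28 and 13.9 ± 1.28 FPKM in shNT and shGPR81 (SD, n = 3), and its 95% interval of -10.4% to 40.4% includes the estimate for IDH1. IDH3A, the catalytic subunit of the NAD-dependent enzyme of the cycle, was at 42.5, 37.6 and 40.3 FPKM in shNT and 35.5, 34.95 and 37.5 FPKM in shGPR81. Its groups were barely apart, and the difference was -0.16 on the log2 scale (SE 0.062, adjusted p = 0.219). IDH3G, a regulatory subunit, overlapped with means of 22.3 ± 3.13 and 21.6 ± 0.6497 FPKM. Of the summed FPKM of these 4 genes, IDH1 made up 44.8% to 47.9% in shNT and 50.7% to 54.1% in shGPR81, and IDH3A 27.3% to 30.9% in shNT and 23.1% to 24.6% in shGPR81. With IDH3B in the sum, a step added after the data were seen, the IDH1 share was 26.7% to 29.9% in shNT and 35.9% to 39.4% in shGPR81, and that of IDH3B 37.7% to 40.4% in shNT and 27.2% to 29.1% in shGPR81. The ratio of IDH1 to IDH2 overlapped between groups, with 5.28 ± 1.16 in shNT and 5.76 ± 0.641 in shGPR81 (exact two-sided permutation test, p = 0.6, adjusted p = 0.686 over 8 ratios).

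**Figure D5:**
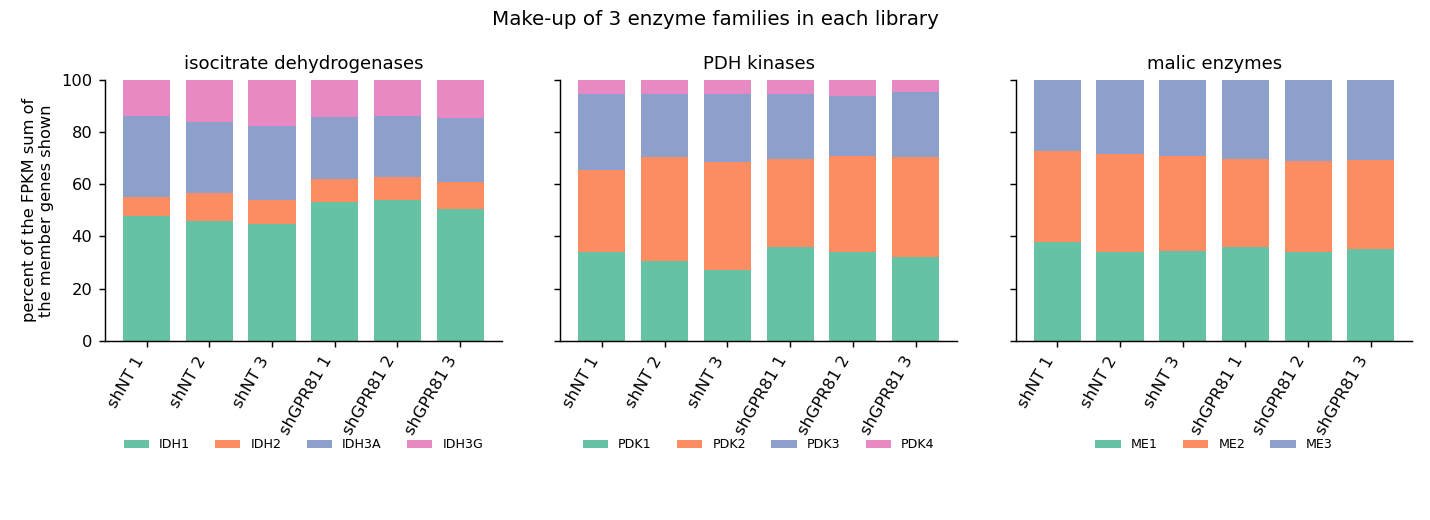
Share of each gene, in percent, in the summed FPKM of its family in each of the 6 libraries, the isocitrate dehydrogenase panel holding the 4 member genes and not IDH3B. The IDH1 share is 44.8% to 47.9% in shNT and 50.7% to 54.1% in shGPR81, while the shares of every PDK gene overlap between groups.

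The sequences before the start sites of these 4 genes are shown because 1 of them passed the adjusted p and the other 3 did not. They are the 250 bases upstream of the RefSeq start on GRCh38.p14, 5′ to 3′ in the direction of transcription, and IDH1 has 2 entries. Capitals mark matches on either strand to TGACGTCA (the cAMP response element), TGACG (its half-site, contained in the full element), GGGCGG (GC box), CCGGAAG (ETS motif), ACGTG (core of the hypoxia response element) or the NRF1 motif.
IDH1 entry 1, chr2:208254459-208254708, minus strand: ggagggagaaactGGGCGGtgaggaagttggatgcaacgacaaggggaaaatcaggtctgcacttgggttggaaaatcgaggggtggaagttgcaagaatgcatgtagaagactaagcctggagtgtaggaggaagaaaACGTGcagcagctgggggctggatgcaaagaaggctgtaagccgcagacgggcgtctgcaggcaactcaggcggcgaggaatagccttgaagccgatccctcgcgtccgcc
IDH1 entry 2, chr2:208255072-208255321, minus strand: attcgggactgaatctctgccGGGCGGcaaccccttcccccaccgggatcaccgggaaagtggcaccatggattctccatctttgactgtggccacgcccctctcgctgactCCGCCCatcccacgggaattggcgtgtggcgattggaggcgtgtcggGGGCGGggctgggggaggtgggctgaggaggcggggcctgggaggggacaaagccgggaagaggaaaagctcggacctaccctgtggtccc
IDH2, chr15:90100622-90100871, minus strand: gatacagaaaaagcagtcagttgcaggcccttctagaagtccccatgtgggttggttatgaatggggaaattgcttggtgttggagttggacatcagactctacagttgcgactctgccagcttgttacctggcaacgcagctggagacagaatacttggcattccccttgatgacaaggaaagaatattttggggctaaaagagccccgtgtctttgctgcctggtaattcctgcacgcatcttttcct
IDH3A, chr15:78149112-78149361, plus strand: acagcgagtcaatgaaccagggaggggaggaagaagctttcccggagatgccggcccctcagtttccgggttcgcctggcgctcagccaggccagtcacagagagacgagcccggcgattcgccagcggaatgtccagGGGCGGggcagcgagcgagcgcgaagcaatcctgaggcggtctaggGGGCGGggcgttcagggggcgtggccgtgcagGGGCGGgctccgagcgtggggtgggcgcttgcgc
IDH3G, chrX:153794376-153794625, minus strand: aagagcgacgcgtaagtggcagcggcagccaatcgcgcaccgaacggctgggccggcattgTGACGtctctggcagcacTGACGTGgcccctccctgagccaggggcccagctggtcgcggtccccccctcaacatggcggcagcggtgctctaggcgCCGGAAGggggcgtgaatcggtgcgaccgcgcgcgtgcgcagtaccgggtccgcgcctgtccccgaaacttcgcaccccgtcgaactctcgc

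The first IDH1 window held 1 GC box and 1 hypoxia core, and the second 3 GC boxes. IDH3A held 3 GC boxes, and the IDH3G window held 2 half-sites, 1 ETS motif and 1 hypoxia core that overlaps the second half-site. The IDH2 window, with a GC content of 48.4%, held none of the motifs searched. It is the 1 entry listed for IDH2, and other starts of that gene were not searched. Windows were matched for 33 of the 35 members, in 45 entries, and set beside the 35116 windows of all genes. A GC box was in 66.7% of member windows and 42.6% of all windows, and the median GC content was 66.4% and 58%. The half-site was in 24.4% of member windows and 21.2% of all windows, the hypoxia core in 28.9% of member windows and 18.5% of all windows and the ETS motif in 8.89% of member windows and 8.52% of all windows. The full cAMP element was in 0 member windows and 1.65% of all windows, and the NRF1 motif in 0 and 1.03%. A match describes letters in a window and not a bound site.

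From citrate to succinate the other enzymes overlapped between groups. CS, citrate synthase, had means of 80.9 ± 3.78 and 76.98 ± 3.03 FPKM in shNT and shGPR81 (SD, n = 3), and ACO1, the cytosolic aconitase that also senses iron, 42.6 ± 1.85 and 41.2 ± 0.981 FPKM. OGDH and DLST form the oxoglutarate dehydrogenase complex with DLD. OGDH had means of 51.3 ± 4.92 and 54.4 ± 3.36 FPKM, and DLST 81.4 ± 4.63 and 78.3 ± 0.635 FPKM. Succinyl-CoA ligase pairs the alpha subunit SUCLG1 with a beta subunit that sets the nucleotide, SUCLA2 for ATP or SUCLG2 for GTP. SUCLG1 had means of 73.1 ± 0.972 and 73.2 ± 1.69 FPKM, and its 95% interval was narrow, at -6.76% to 7.49%. SUCLA2 had means of 21.7 ± 0.9705 and 22.02 ± 1.898 FPKM, and SUCLG2 47.8 ± 2.82 and 49.4 ± 1.904 FPKM, so SUCLG2 was the more abundant beta subunit transcript in both groups. The ratio of SUCLA2 to SUCLG2 was 0.453 ± 0.006498 in shNT and 0.447 ± 0.054001 in shGPR81 (exact two-sided permutation test, p = 1, adjusted p = 1 over 8 ratios).

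From fumarate to oxaloacetate, FH, fumarase, overlapped with means of 112 ± 4.93 and 114 ± 4.39 FPKM. MDH1, which serves the malate-aspartate shuttle in the cytosol, was at 219, 221 and 223 FPKM in shNT and 238, 241 and 241 FPKM in shGPR81. Its libraries were the closest of all tested members, with a coefficient of variation of 0.9303% in shNT and 0.637% in shGPR81, and the groups were apart. The difference was 0.12 on the log2 scale (SE 0.041, adjusted p = 0.159), where limma weighs the spread of a gene together with that of genes at a like level. MDH2, the mitochondrial enzyme of the cycle, was at 134, 152 and 171 FPKM in shNT and 139, 137 and 151 FPKM in shGPR81. These groups overlapped, with the wider spread in shNT. The ratio of MDH1 to MDH2 also overlapped, with 1.46 ± 0.168 in shNT and 1.69 ± 0.0836 in shGPR81 (exact two-sided permutation test, p = 0.2, adjusted p = 0.533 over 8 ratios).

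Malic enzymes turn malate into pyruvate. ME1, in the cytosol, had means of 16.5 ± 1.24 and 17.1 ± 0.669 FPKM in shNT and shGPR81, and ME2, the mitochondrial NAD-dependent enzyme, 16.9 ± 0.519 and 16.7 ± 0.934 FPKM, both with overlap. ME3, the mitochondrial NADP-dependent enzyme, was at 13.01, 13.3 and 13.3 FPKM in shNT and 15.04, 15.7 and 14.4 FPKM in shGPR81. All its shGPR81 libraries lay above the narrow shNT range. The difference was 0.19 on the log2 scale (SE 0.060, adjusted p = 0.133), with 0.16 to 0.22 over 14 settings at an adjusted p of 0.125 to 0.369. ME3 made up 27.4% to 29.02% in shNT and 30.5% to 31.1% in shGPR81 of the summed FPKM of the 3 genes.

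On the glutamine side, GLS2, the liver-type glutaminase, was barely read. It was listed at 0 in the 3 shNT libraries and in shGPR81 replicate 2, and at 0.0972 and 0.0984 FPKM in the other shGPR81 libraries. These values stand for the same number of reads in each, which the steps of the FPKM values do not fix beyond a minimum of 1. At values so low in both groups no fold is given. GLUD1, glutamate dehydrogenase, had means of 87.3 ± 2.38 and 87.2 ± 3.32 FPKM in shNT and shGPR81 (SD, n = 3) and an interval of -7.79% to 8.21%. Reads of GLUD1 and its near-identical copy GLUD2, which was at 0 to 0.1995 FPKM, may not be fully separable.

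The aspartate aminotransferases belong to the malate-aspartate shuttle. GOT1, the cytosolic enzyme, was at 45.2, 46.1 and 53.2 FPKM in shNT and 49.6, 49.8 and 52.9 FPKM in shGPR81. GOT2, the mitochondrial one, was at 101, 105 and 117 FPKM in shNT and 99.7, 99.2 and 107 FPKM in shGPR81. Each gene overlapped between groups, with an adjusted p of 0.638 for GOT1 and 0.602 for GOT2. Their ratio within a library was less variable than either gene. The ratio of GOT1 to GOT2 was 0.447, 0.437 and 0.456 in shNT and 0.497, 0.502 and 0.493 in shGPR81. The ratios did not overlap (exact two-sided permutation test, p = 0.1, adjusted p = 0.4 over 8 ratios), and the log2 difference was 0.16, or 0.14 to 0.17 with single libraries left out.

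ACLY, ATP-citrate lyase, splits exported citrate into acetyl-CoA and oxaloacetate. It was at 152, 165 and 170.1 FPKM in shNT and 173, 180.3 and 183 FPKM in shGPR81. The groups were just apart, and the difference was 0.14 on the log2 scale (SE 0.056, adjusted p = 0.228). The remaining ratios, ME1 to ME2, PDHA1 to PDHB and PDP1 to PDP2, overlapped between groups, with exact two-sided permutation p of 0.5, 0.3 and 0.6.

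The spread among libraries was not alike in the groups. The coefficient of variation was larger in shNT for 25 of the 34 members and larger in shGPR81 for 9, and it was larger in shNT for 66.3% of all tested genes. Its median over members was 4.93% in shNT and 3.86% in shGPR81. It was above 10% for 6 members in shNT (PDK1, PDK2, PC, IDH2, IDH3G and MDH2) and for 1, PDK4, in shGPR81. For 19 of the 34 members the lowest shNT value was in replicate 1. For this count and for those above 10% the share of all tested genes was not computed, so they are not read as traits of the members.

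A second list of 52 genes holds neighbours of the pathway, such as the rest of the cycle, mitochondrial carriers, the lactate fork, glutamine metabolism, acetyl-CoA supply and lipoate assembly. Of its 47 tested genes, 1 was called lower and 1 higher, and without the fold threshold 2 were lower and 1 higher. The shares of all tested genes were 1.59% and 0.955% with the fold threshold and 3.07% and 2.06% without it. GLUL, glutamine synthetase, was called higher, at 5.86, 5.83 and 6.19 FPKM in shNT and 11.6, 12.3 and 12.2 FPKM in shGPR81. Its difference of 1.001 on the log2 scale (SE 0.066, adjusted p = 0.000629) was far outside the spread of either group and larger than that of any member. ACSS1, the mitochondrial acetyl-CoA synthetase, was called lower with means of 7.78 ± 0.485 and 4.79 ± 0.456 FPKM, a difference of -0.69 on the log2 scale (SE 0.095, adjusted p = 0.00794). IDH3B, the beta subunit of the enzyme that IDH3A and IDH3G help to form, was at 83.02, 86.4 and 96.6 FPKM in shNT and 60.3, 56.5 and 62.6 FPKM in shGPR81. This difference of -0.57 on the log2 scale (SE 0.070, adjusted p = 0.00503) passed the adjusted p but lay just short of the fold threshold. It was past both thresholds without shNT replicate 1 (-0.61) and without shGPR81 replicate 3 (-0.60). All 3 genes kept an adjusted p below 0.05 in each of 14 alternative settings. ACSS1 and IDH3B both lie on chromosome 20, from 24986866 and 2639041 of GRCh37. ACSS2 of the same list lies on that chromosome as well, but outside the stretch between them, from 33459949. The difference for ACSS2 was 0.029 on the log2 scale (SE 0.067, adjusted p = 0.87). The part of position in these differences was not tested.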

How the data were processed

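RNA of 3 shNT and 3 shGPR81 libraries was prepared with a stranded mRNA kit and sequenced as single-end reads of 75 bases. The values deposited by the authors are FPKM for each gene symbol and library. The submitters' processing notes name TopHat2 2.0.13, Bowtie2 2.2.3, SAMtools 0.1.19 and Cuffnorm 2.2.1. The labels name a mouse genome build and the study's methods hg19 (GRCh37), which was used here for coordinates since the cells are human. The gene annotation is not given in the sources used here.

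Differences were tested with limma 3.58.1 in R 4.3.3 (lmFit, eBayes with trend) on log2(FPKM + 0.1), a scale that understates changes of low genes. Genes entered when 3 libraries or more reached 0.1 FPKM, 14349 in all, and p-values were adjusted by Benjamini-Hochberg over them. A call needed an adjusted p below 0.05 and a fold change beyond 1.5. The procedure was tested on simulated data, where small changes were often missed. Ratios were compared by exact permutation (Python 3.11.15, scipy 1.17.1). Read counts, which the study compared, were not used here. For 9 members whole reads were read from the steps of the FPKM values, within 0.0005 reads or a relative 6e-06, and the same steps gave relative depth. The smallest whole counts that fit were taken, so a factor common to all libraries would be missed.

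Every member is given, IDH1 with full statistics as the rule for an adjusted p below 0.05 asks. Other members were given per library mainly where groups did not overlap or a ratio turned on them, and GLUD2 and IDH3B were named, after their values were seen, as were the motifs chosen. The members and lists were chosen with earlier results of these data known. Alternatives were pseudocounts of 1 and 0.01, a filter of 1 FPKM or none, median centring, quantile normalization, a replicate block, eBayes without trend, and leaving out each library.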

Additional observations from a re-analysis of the deposited data

How the results depend on the processing

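In 14 alternative settings 0 members were called in either direction. The count of higher members at an adjusted p below 0.05 was 1 in 11 settings and 0 when either the shNT replicate 2 library or one of shGPR81 replicates 1 and 2 was left out, a range of 0 to 1 over the left-out libraries. Intervals inside 1.5-fold numbered 32 to 34. The median of the members was -0.024 to 0.00558 with single libraries left out, lowest without shNT replicate 1. In the second list 2 to 4 genes were then called and 3 to 9 had an adjusted p below 0.05, the highest counts again without shNT replicate 1. The count of all called genes was 365, 217 with a pseudocount of 1 and 198 to 408 with single libraries left out. Some members near 0 changed sign without passing a threshold. PDK2 was at -0.0085 on the log2 scale after quantile normalization, and SUCLG1 at -0.0025 after median centring and -0.0028 after quantile normalization. With single libraries left out, the log2 fold change was -0.12 to 0.10 for PDK2, -0.057 to 0.12 for PDK4, -0.14 to 0.065 for IDH3G, -0.048 to 0.069 for SUCLA2, -0.012 to 0.020 for SUCLG1, -0.066 to 0.013 for ME2 and -0.032 to 0.022 for GLUD1. HCAR1 was at -0.78 to -0.22 in those fits and gave no value under the filter of 1 FPKM. The cause was not tested.

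Same-numbered libraries deviated from their group means with correlations across genes of 0.12, 0.0223 and 0.00577, so the numbers were not taken to pair them. With the replicate block 0 members were called, 1 had an adjusted p below 0.05, and 312 genes were called in all. With 3 libraries a group, members that missed the threshold are not shown to be unchanged.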
